A study of Mus musculus with 6 samples.

Results

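The kinetochore and the spindle assembly checkpoint were followed through 41 genes in lung group 2 innate lymphoid cells (ILC2s) with and without Cd48. The genes were chosen by name, as centromere, kinetochore, chromosomal passenger and checkpoint genes, and all 41 were present among the 17438 genes of the deposited table. The study compared 3 WT libraries (WT1 to WT3; genotype label WT) with 3 KO libraries (KO1 to KO3; genotype label B6.129S4-Cd48tm1Rsr/EpaulJ), and the strain label of the samples was CB57BL/6. In both genotypes the cells were ILC2s sorted from lung, carried the treatment label IL-33 and were in culture when RNA was taken. RNA-seq started from 10 pg of RNA a sample. The series' design text speaks of duplicates, while 3 samples of each genotype were analysed. The sources used here give no age and do not say how many mice stand behind a sample or whether animals were pooled, so p-values measure the spread between these libraries, which may be technical. The name of the KO strain marks a targeted allele with a 129S4 origin.

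ILC2s are tissue-resident lymphocytes that divide and make type 2 cytokines in response to IL-33, and CD48 is a surface receptor of the SLAM family. The kinetochore is the protein assembly that joins each centromere to the spindle in mitosis. Nucleosomes with the histone variant CENP-A carry the inner, constitutive centromere network. This network recruits the outer KMN network (KNL1, MIS12 and NDC80 complexes), which grips microtubules. Unattached kinetochores recruit checkpoint proteins that hold back the anaphase promoting complex, and the chromosomal passenger complex with Aurora B corrects faulty attachments. Many of these genes are transcribed most strongly in late cell cycle phases, so in bulk RNA more cycling cells and more RNA per cycling cell cannot be told apart.

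Library totals ran from 14928623 to 27450400 counts, and the 41 genes together took 0.220% to 0.276% of them. Levels are CPM, the usual count unit scaled to library depth, here with TMM factors. Cd48 itself, the check of the labels, ranged from 41.6 to 58.2 CPM over the WT libraries and from 4.40 to 5.59 CPM over the KO libraries. Library WT1 stood apart: its log2 CPM correlated with those of the other libraries at r = 0.922 to 0.932 across genes, against 0.980 to 0.988 among the other 5. It had counts for 15315 genes, against 16729 to 17006 in the others. Counts and medians over all 41 members, and the called members, are therefore given with and without WT1. Many single differences of other members are given only without it. All 14 listed ILC2 markers were in the table. Gata3 had 1072 to 1417 CPM in WT and 780 to 1088 CPM in KO, and Il1rl1, the IL-33 receptor, 611 to 1276 and 1317 to 1347 CPM. Thy1, the lowest of the 14, had 8.90 to 12.4 CPM in WT and 6.05 to 7.19 CPM in KO. Without WT1, 9 markers had a log2 fold change above 0 and 5 below. Il5 rose by 0.29 and Il2ra by 0.31 (edgeR adjusted p = 0.0332 and 0.02), and none fell. With WT1 the differences of Il5 and Il2ra were -0.02 and 0.32, and no marker passed the test.

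With WT1 left out, 6 of the 41 genes rose in KO and none fell (edgeR adjusted p under 0.05). The risers were Cenpn, Cenpf, Aurkb, Spc25, Cenpa and Bub1b, 1 or 2 from each of 5 of the 6 functional groups, and their rises ran from 0.38 to 0.86 on the log2 scale. Over all 13643 genes tested the same fit called 1.17% higher and 0.652% lower. A total of 39 of the 41 log2 fold changes lay above 0, against 50.2% of all tested genes, and their median was 0.32 (range -0.05 to 0.86), against a median of 0.00 over all genes. At an unadjusted p under 0.05, 25 members were higher and none lower, where the whole table had 8.07% higher and 5.6% lower. With all 6 libraries edgeR called no member in either direction, and the lowest adjusted p was 0.683. That fit called 0.015% of 13317 genes higher and 0.015% lower. At an unadjusted p under 0.05 it had 9 members higher and none lower, against 2.94% and 3.95% of all genes. On the same 6 libraries DESeq2 called 2 members higher, Aurkb and Cenpf, and none lower, against 0.363% of all genes in each direction. Limma-voom with quality weights for the samples had 3 members higher (Aurkb, Cenpf and Cenpn) and none lower, against 0.421% and 0.33% of all genes. These weights let single libraries count for less, and the weight of WT1 was not examined. There 39 members lay above 0, with a median of 0.30, nearer to edgeR without WT1 than with it. Without WT1, DESeq2 had 9 members higher and none lower, against 1.76% and 1.05% of all genes, adding Bub1, Knl1 and Knstrn to the 6 of edgeR. Limma-voom had the same 6 as edgeR higher and none lower, against 1.29% and 0.836%. The median member difference with 6 libraries was 0.23 (range -0.15 to 1.05), with 31 members above 0, against 49.5% of all genes.

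In the individual libraries, 14 of the 41 genes had every KO library above every WT library, and none had every KO library below. Over all tested genes these shares were 10.2% and 9.11%. Set against WT2 and WT3 alone, 30 members had all 3 KO libraries higher and none had all 3 lower, where the whole table had 15.8% and 14.3%. Of these 30 genes, WT1 lay below every KO library in 14, above every KO library in 13 and within the KO range in 3. WT1 thus sat on opposite sides of the KO libraries for different members.

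**Figure D1:**
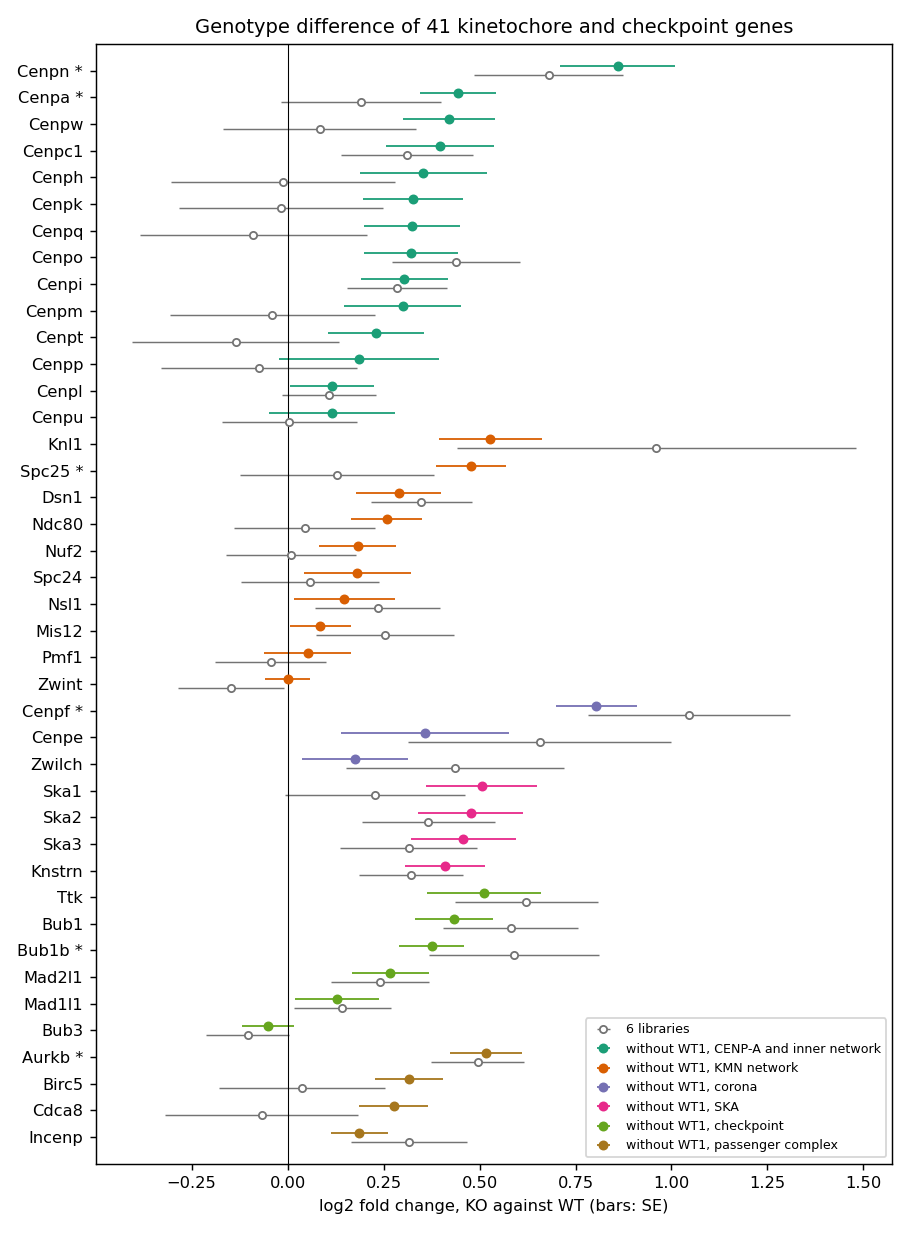
Log2 fold change (KO minus WT, x axis) of each of the 41 genes (y axis), from all 6 libraries (open points) and with WT1 left out (filled, coloured by functional group); bars are standard errors and an asterisk marks the 6 genes called without WT1. Without WT1 39 genes lie to the right of 0, and with 6 libraries 31 do.

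Promoter sequences of the called genes are shown first, since many late cell cycle genes share a pair of promoter elements. The cell cycle genes homology region (CHR), with the core TTTGAA or TTCGAA, is a binding element of MuvB complexes, and CCAAT is the binding element of NF-Y. RefSeq windows on GRCm38.p6, from 250 bases before to 50 bases after the start site, were given for 35 of the 41 genes (39 promoters). The genes without an entry were Spc24, Nsl1, Zwilch, Ska1, Incenp and Aurkb. Each stretch below reads 5′ to 3′ on the gene's strand. Capitals mark the core, as TTTGAA or as TTCGAA, and the CCAAT element; on the opposite strand the element CCAAT reads ATTGG, the core TTTGAA reads TTCAAA, and the other form of the core is unchanged. The stretches are chr1:189688075-189688221 (minus strand) for Cenpf, chr8:116921680-116921749 (plus strand) for Cenpn and chr5:30666771-30666915 (plus strand) for Cenpa. For the others they are chr2:69206184-69206273 (minus strand) for Spc25, chr2:118598016-118598110 (plus strand) for Bub1b and chr10:72654786-72654870 (plus strand) for Zwint, the most abundant member, shown for contrast.
Cenpf: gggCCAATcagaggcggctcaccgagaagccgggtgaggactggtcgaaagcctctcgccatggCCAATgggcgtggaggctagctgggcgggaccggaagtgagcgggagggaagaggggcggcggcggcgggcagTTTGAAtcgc
Cenpn: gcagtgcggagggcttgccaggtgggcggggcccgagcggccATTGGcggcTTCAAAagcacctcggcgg
Cenpa: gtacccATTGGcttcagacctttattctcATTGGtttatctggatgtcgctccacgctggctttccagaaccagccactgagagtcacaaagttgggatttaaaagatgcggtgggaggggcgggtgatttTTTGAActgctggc
Spc25: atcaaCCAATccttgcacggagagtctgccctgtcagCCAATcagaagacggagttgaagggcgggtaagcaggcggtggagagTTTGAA
Bub1b: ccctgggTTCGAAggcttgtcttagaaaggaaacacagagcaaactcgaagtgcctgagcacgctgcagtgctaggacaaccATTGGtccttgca
Zwint: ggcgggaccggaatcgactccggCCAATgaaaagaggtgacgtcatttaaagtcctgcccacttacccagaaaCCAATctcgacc

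Counting the first base after the start site as 1, the core began at position 3 in Cenpf, at -9 in Cenpn (reverse strand), at 17 in Cenpa and at 25 in Spc25. Bub1b had TTCGAA at -188, shown above, and TTTGAA at 41. The Zwint window held CCAAT and neither TTTGAA nor TTCGAA. No other form of the core was searched for in any promoter. On either strand, TTTGAA or TTCGAA was in 43.6% of member promoters, against 19.2% of all 32851 promoters of the same length. CCAAT was in 66.7% of member promoters and 37.4% of all promoters, and a promoter held both in 35.9% and 7.52%. A match to the core and one to CCAAT can share an end base. A core whose first base lay between -60 and 45 was in 33.3% of member promoters and 5.9% of all. The 13 genes with such a core had a median difference of 0.44 on the log2 scale without WT1, and 5 of them were called (Bub1b, Cenpa, Cenpf, Cenpn and Spc25). Their range was -0.05, for Bub3, to 0.86. The 22 genes without it had a median of 0.29 (range -8.8e-05 to 0.48), with none called. Aurkb, the other called gene, had no promoter entry and is in neither group. With all 6 libraries the medians were 0.32 with the core and 0.07 without it. The range of -60 to 45 and the splits by it were added to the planned shares, and they are descriptions without a test. Over the whole window 16 genes held a core. Cenpl, Cenpm and Pmf1, with a core only outside that range, differed by 0.12, 0.30 and 0.05 without WT1, and none was called.

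In the inner network, the CENP-A nucleosome and the proteins built on it, 2 of 14 genes rose without WT1 and none fell. Cenpn, which reads the CENP-A nucleosome together with Cenpl, had 16.8, 12.02 and 12.1 CPM in WT1 to WT3 and 20.03, 20.9 and 24.6 CPM in KO1 to KO3. Every KO library lay above every WT library, WT1 included. Cenpn (GRCm38, chromosome 8, 116921730 to 116941507) rose by 0.86 on the log2 scale without WT1 (SE 0.15, edgeR adjusted p = 0.0119), and its difference with WT1 was 0.68 (SE 0.19, edgeR adjusted p = 0.69). Cenpa, the centromeric histone H3 variant, had 110, 73.7 and 67.0 CPM in WT and 88.4, 107 and 90.7 CPM in KO. Here WT1 was the highest library of all and the other WT libraries were the lowest. The Cenpa (chromosome 5, 30666777 to 30674830) difference was 0.44 without WT1 (SE 0.10, edgeR adjusted p = 0.0419) and 0.19 with it (SE 0.21, edgeR adjusted p = 0.741).

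WT1 was the highest library for 9 of the 14 genes of this network and the lowest for 1, Cenpo. Cenph, of the CENP-H/I/K/M complex, had 27.2, 14.9 and 14.3 CPM in WT and 18.4, 15.4 and 21.9 CPM in KO. Its partner Cenpk had 48.9, 27.3 and 26.95 CPM in WT and 32.0, 39.1 and 30.8 CPM in KO. Cenpm, of the same complex, had 24.0, 12.2 and 14.2 CPM in WT and 15.7, 16.5 and 16.8 CPM in KO. In all 3 genes WT1 was the highest library and every KO library lay above WT2 and WT3. Cenpq, of the CENP-O/P/Q/U complex, had 48.0, 22.1 and 25.7 CPM in WT and 29.98, 28.3 and 31.6 CPM in KO. Cenpt, which links the inner network to the NDC80 complex, had 39.7, 20.6 and 21.8 CPM in WT and 26.6, 23.7 and 24.3 CPM in KO. Cenpp, the least abundant member before scaling by length, had 11.8, 8.68 and 6.39 CPM in WT and 7.9995, 9.22 and 8.18 CPM in KO, and its KO values overlapped WT2. The log2 differences of these 6 genes lay between -0.14 and -0.01 with WT1 and between 0.19 and 0.35 without it, and none passed the test. Of the other 6 members of this network (Cenpc1, Cenpi, Cenpl, Cenpo, Cenpu and Cenpw), Cenpw, a histone-fold partner of Cenpt, had the largest difference without WT1, at 0.42. Cenpo, of the CENP-O/P/Q/U complex, and Cenpi were outside the naming rule and chosen after their values were seen. Cenpo had 22.1, 26.97 and 30.7 CPM in WT and 34.0, 34.5 and 39.9 CPM in KO. Cenpi had 38.7, 38.2 and 36.9 CPM in WT and 40.9, 47.6 and 50.1 CPM in KO, both without overlap. Neither passed the test (edgeR adjusted p = 0.254 and 0.241 without WT1, and 0.69 for both with it). Cenpu had 12.3 to 15.6 CPM in WT and 11.97 to 14.8 CPM in KO, the smallest difference without WT1 (0.12, as for Cenpl). The whole network of 14 genes had a median of 0.04 with WT1 and 0.32 without.

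In the outer KMN network 1 of 10 genes rose without WT1. Spc25, which anchors the NDC80 complex with Spc24, had 116, 67.5 and 60.4 CPM in WT and 82.8, 93.6 and 89.9 CPM in KO. All KO libraries lay between WT1 and the other WT libraries. Spc25 (chromosome 2, 69193895 to 69206194) differed by 0.48 without WT1 (SE 0.09, edgeR adjusted p = 0.0197) and by 0.13 with it (SE 0.25, edgeR adjusted p = 0.849). The other NDC80 subunits had smaller differences without WT1, 0.26 for Ndc80, 0.18 for Nuf2 and 0.18 for Spc24, and none passed the test. Knl1, the docking platform for Bub1 and Bub1b, was singled out after its values were seen: it had 6.77, 28.4 and 33.9 CPM in WT and 39.0, 51.2 and 45.04 CPM in KO. Its WT1 value lay farther below WT2 and WT3, on the log2 scale, than that of any other member, and its difference was 0.53 without WT1 (SE 0.13, edgeR adjusted p = 0.078). Zwint, the KNL1 partner and most abundant member per kilobase, had 321, 241 and 246 CPM in WT and 238, 244 and 247 CPM in KO. Its KO libraries overlapped WT2 and WT3, and the difference without WT1 was 0.00 (SE 0.06). Pmf1, a MIS12 complex subunit, had 44.6, 37.5 and 36.8 CPM in WT and 34.3, 39.7 and 41.2 CPM in KO. The groups overlapped for Pmf1, with a difference of 0.05 (SE 0.11) without WT1. The other MIS12 subunits, Dsn1, Mis12 and Nsl1, had differences of 0.29, 0.08 and 0.15 without WT1, none past the test.

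The corona is the outermost, fibrous layer of an unattached kinetochore, and 1 of its 3 genes rose without WT1. Cenpf, a large microtubule-binding corona protein, had 18.2, 38.1 and 31.9 CPM in WT and 58.3, 62.3 and 61.6 CPM in KO. The KO libraries lay close together and far above all 3 WT libraries. Cenpf (chromosome 1, 189640606 to 189688086) had a mean of 60.7 CPM ± 2.16 (SD, n = 3) in KO and 34.99 CPM ± 4.42 (SD, n = 2) in WT2 and WT3. It rose by 0.80 on the log2 scale without WT1 (SE 0.11, edgeR adjusted p = 0.0025), and its difference of 1.05 with WT1 (SE 0.26, edgeR adjusted p = 0.689) was the largest of any member in that fit. Cenpe, the kinesin motor that carries chromosomes to the spindle equator, had 24.2, 41.8 and 66.1 CPM in WT and 65.4, 63.2 and 80.2 CPM in KO. WT3 lay within the KO range for Cenpe, and the difference without WT1 was 0.36 (SE 0.22, edgeR adjusted p = 0.567). Zwilch, a subunit of the ROD-ZW10-Zwilch complex, differed by 0.18 without WT1.

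Cenpf lies on the chromosome of the targeted gene, 17.935 Mb from Cd48. Nuf2, Cenpl and Nsl1 lie 2.151, 10.595 and 19.358 Mb from Cd48 on the same chromosome. Whether any of these genes sits in sequence of 129S4 origin was not tested. The differences of the other 3 without WT1 ran from 0.12 to 0.18, and none passed the test.

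The SKA complex, which keeps kinetochores on depolymerising microtubules, and the spindle protein Knstrn had differences of similar size, although none of the 4 genes passed the test. Ska2, the most abundant of them per kilobase, had 42.8, 35.4 and 34.2 CPM in WT and 39.1, 53.3 and 52.5 CPM in KO. Its KO libraries all lay above WT2 and WT3, and WT1 lay above KO1. The Ska2 difference was 0.48 without WT1 (SE 0.14, edgeR adjusted p = 0.123) and 0.37 with it (SE 0.17, edgeR adjusted p = 0.69). Ska1, Ska3 and Knstrn differed by 0.51, 0.46 and 0.41 without WT1, and all 4 genes had an unadjusted p under 0.05 and no overlap of KO with WT2 and WT3.

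In the spindle assembly checkpoint 1 of 6 genes rose without WT1. Bub1b, which encodes BUBR1, a part of the mitotic checkpoint complex, had 63.8, 103 and 116 CPM in WT and 132, 148 and 146 CPM in KO. All KO libraries lay above all WT libraries. Bub1b (chromosome 2, 118598211 to 118641591) differed by 0.38 without WT1 (SE 0.08, edgeR adjusted p = 0.0427) and by 0.59 with it (SE 0.22, edgeR adjusted p = 0.69). The related kinase Bub1, outside the naming rule and chosen after its values were seen, had 40.4, 51.2 and 62.3 CPM in WT and 75.4, 81.2 and 73.9 CPM in KO, again without overlap. Its difference was 0.43 without WT1 (SE 0.10, edgeR adjusted p = 0.0528). The kinase Ttk, chosen in the same way, had no overlap either, with 16.3 to 22.04 CPM in WT and 26.8 to 35.8 CPM in KO and a difference of 0.51 without WT1 (SE 0.15, edgeR adjusted p = 0.121). Bub3, the adaptor that brings Bub1 and Bub1b to KNL1, went the other way in sign, with 277, 242 and 258 CPM in WT and 238, 257 and 229 CPM in KO. The groups overlapped for Bub3, and its difference was -0.05 without WT1 (SE 0.07) and -0.10 with it (SE 0.11). Mad1l1 and Mad2l1, the receptor and effector of the checkpoint signal, had differences of 0.13 and 0.27 without WT1.

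In the chromosomal passenger complex 1 of 4 genes rose without WT1, the kinase subunit. Aurkb (chromosome 11, 69045647 to 69051664) had 86.5, 88.7 and 78.9 CPM in WT and 109, 118 and 131 CPM in KO. WT1 lay among the other WT libraries here, and every KO library was above them. The Aurkb difference was 0.52 without WT1 (SE 0.09, edgeR adjusted p = 0.0152) and 0.50 with it (SE 0.12, edgeR adjusted p = 0.683). Birc5, which encodes survivin and docks the complex to chromatin, had 157, 94.5 and 97.7 CPM in WT and 107, 128 and 123 CPM in KO. Cdca8, which encodes borealin, had 166, 90.9 and 93.5 CPM in WT and 100, 114 and 120 CPM in KO. In both, WT1 was the highest library and all KO libraries lay above WT2 and WT3. Their differences without WT1 were 0.32 (SE 0.09, edgeR adjusted p = 0.108) for Birc5 and 0.28 (SE 0.09, edgeR adjusted p = 0.171) for Cdca8. Incenp, the scaffold that binds Aurora B, differed by 0.19 without WT1.

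**Figure D2:**
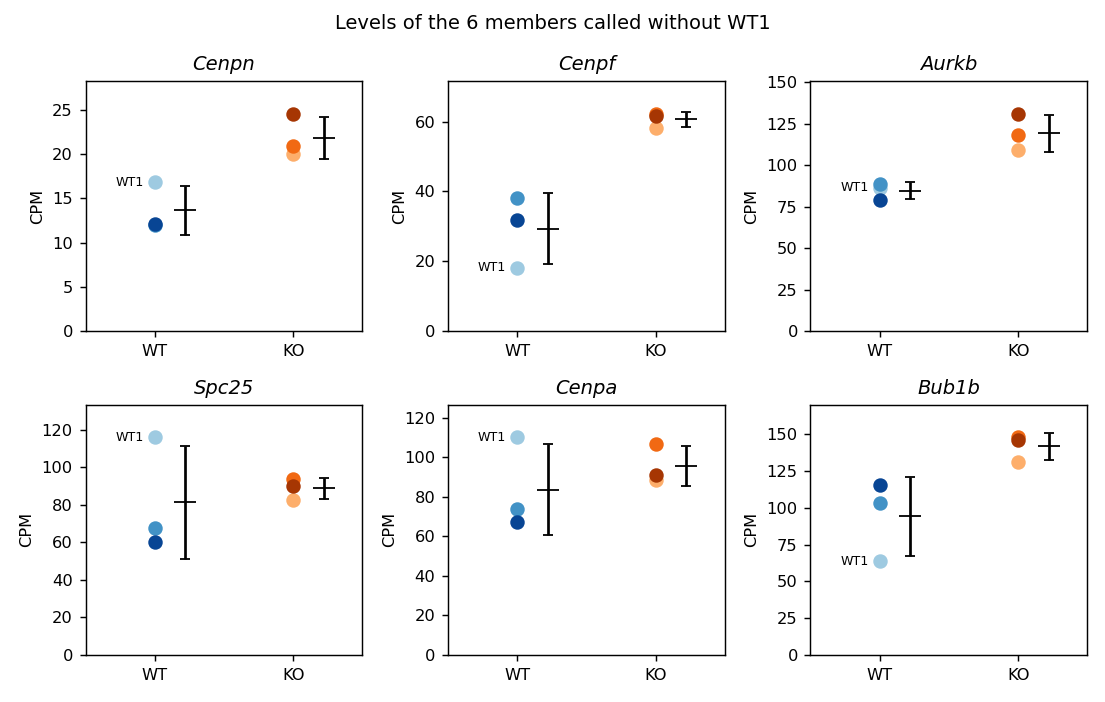
CPM (y axis, from 0) of the 6 genes called without WT1 in each WT and KO library; each point is 1 library, and the bars beside them are the mean and SD of the 3 libraries of a genotype, WT1 included. WT1 lies below the KO libraries for Cenpf, Bub1b, Aurkb and Cenpn, above them for Cenpa and Spc25.

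Summed within each library, the 41 genes reached 2550, 2196 and 2244 CPM in WT1 to WT3 and 2482, 2736 and 2730 CPM in KO1 to KO3. The KO mean was 1.19 times that of WT2 and WT3, and 1.14 times that of all 3 WT libraries. Against WT2 and WT3 the ratio was highest in the corona (1.40) and the SKA group (1.37), then 1.27 in the inner network, 1.24 in the passenger complex, 1.13 in the checkpoint and 1.12 in the KMN network. Against all 3 WT libraries the order changed, with 1.70 in the corona, 1.25 in the SKA group, 1.16 in the checkpoint, 1.14 in the passenger complex, 1.11 in the inner network and 1.05 in the KMN network. The SKA genes summed to 110 and 109 CPM in WT2 and WT3 and to 131, 164 and 155 CPM in KO, with 141 CPM in WT1. The corona genes summed to 52.7 CPM in WT1, 99.2 and 120 CPM in WT2 and WT3, and 145 to 167 CPM in KO. Differences between the groups of genes were not tested.

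**Figure D3:**
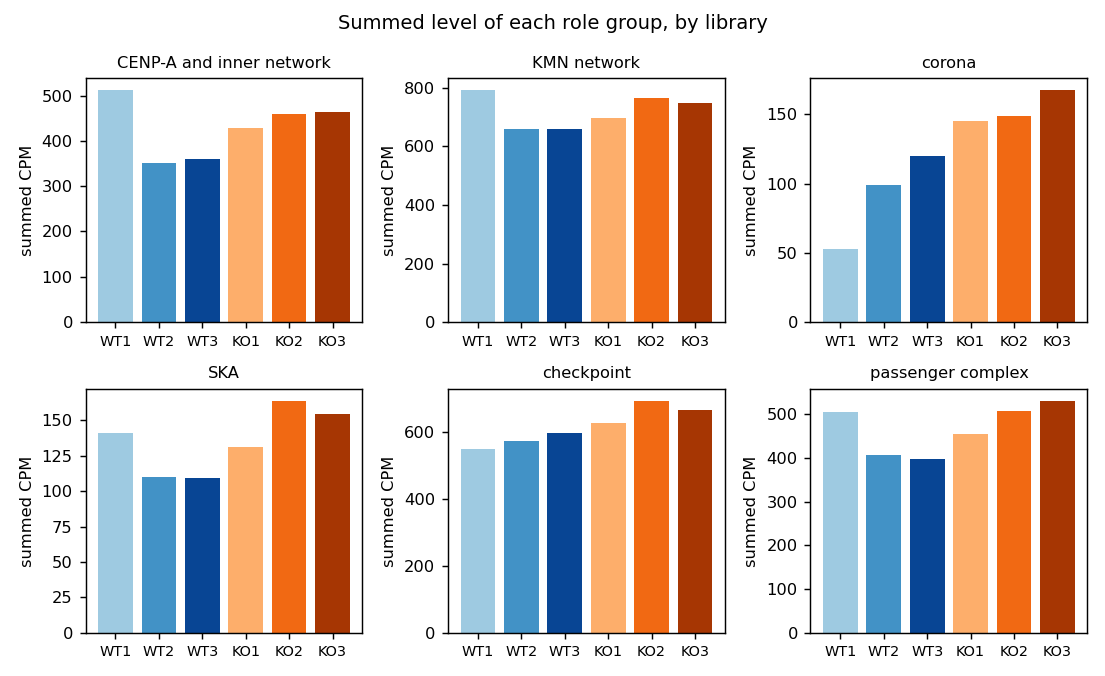
Summed CPM (y axis) of the members of each functional group in each WT and KO library; each bar is 1 library and starts at 0. WT1 is the highest library for the inner network (512 CPM) and the KMN network (792 CPM) and the lowest for the corona (52.7 CPM) and the checkpoint (547 CPM).

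Between genes, levels can be set side by side only per length, here as CPM per kilobase of annotated transcript. Zwint led with a mean of 225 CPM per kilobase over the 6 libraries (range 209 to 282), above the range of every other member. Birc5 followed at 124 (99.8 to 166) and Bub3 at 113 (103 to 125), and these neighbours overlapped. Spc25, Cdca8, Mad2l1, Cenpa, Aurkb and Mis12 came next with means from 55.1 to 71.2 CPM per kilobase and overlapping ranges. At the low end were Nsl1 (5.25), Knl1 (5.22), Cenpu (4.66) and Cenpf (4.05), again with overlapping ranges. By this measure, subunits of 1 complex were not at 1 level. In the NDC80 complex Spc25 had 71.2 CPM per kilobase (50.6 to 97.1) and Nuf2 26.1 (21.3 to 31.9), ranges that did not overlap, and Spc24 (36.3) and Ndc80 (29.3) lay between them. In the MIS12 complex Mis12 (1416 bases) had 55.1 CPM per kilobase and Nsl1 (4879 bases) 5.25. Over the 6 libraries the highest of all members, Zwint, has 1138 bases and the lowest, Cenpf, 11130. Without WT1 Zwint stayed highest (214 CPM per kilobase). Cenpu, with 2931 bases, was then lowest at 4.523, and Cenpf had 4.531. Each length is that of 1 chosen transcript, and the part of length in these levels was not tested.

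**Figure D4:**
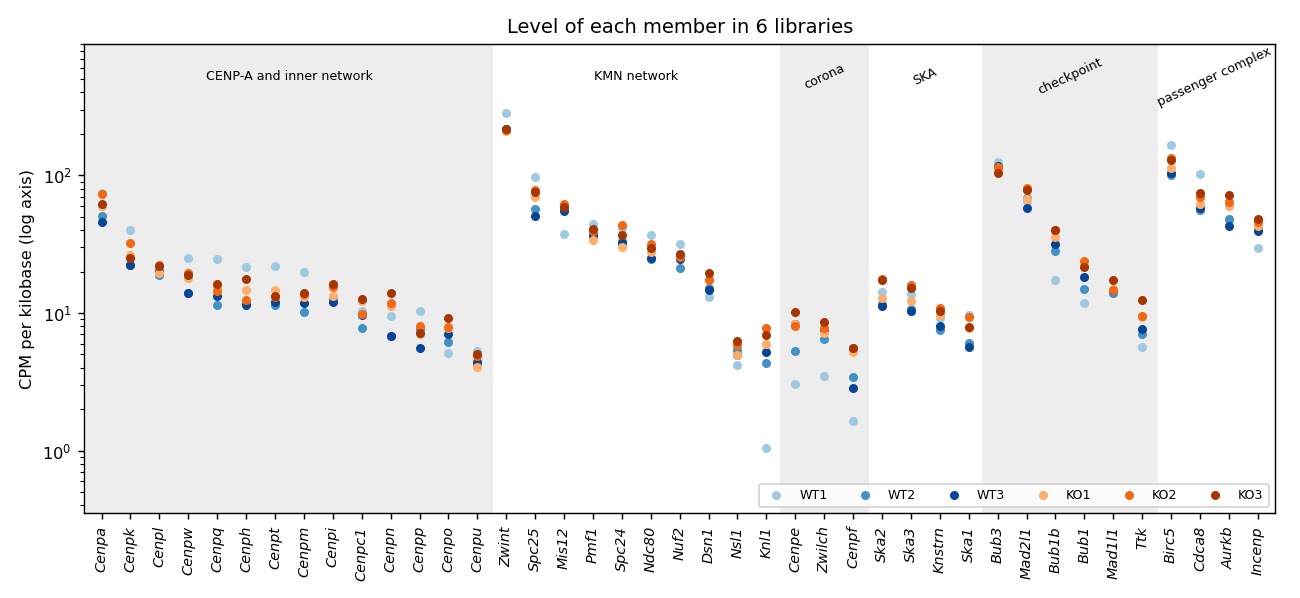
CPM per kilobase of transcript (y axis, log scale) of each of the 41 genes, grouped by function; each point is 1 library. Zwint is highest in every library, and the WT1 point of Knl1 (1.04 CPM per kilobase) is the lowest value plotted.

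WT1 departed from the other WT libraries in step with transcript length. Across the 41 genes, the log2 ratio of WT1 to the mean of WT2 and WT3 (CPM with 0.1 added to each) had a Pearson correlation of -0.73 and a Spearman correlation of -0.70 with log2 transcript length, given as a description, since the genes share the same 3 libraries. Over 13053 tested genes with a known length the Spearman correlation was -0.38. WT1 was above both other WT libraries in 15 of the 19 members under 2000 bases. Their median log2 ratio was 0.64, against 0.27 over all tested genes of that length. WT1 was below both in 8 of the 12 members of at least 3000 bases. Their median log2 ratio was -0.41, and that of all tested genes of that length was also -0.41. The matching counts over all genes are not given here. The median log2 fold change of the short members was 0.04 with WT1 and 0.30 without, while that of the long members was 0.40 with WT1 and 0.39 without. With the trend on length removed from each library, 36 of the 41 members lay above 0 with all 6 libraries, at a median of 0.20. No member was called in that fit, and 8 had an unadjusted p under 0.05. The shares over all genes were not counted for it. The cause of the pattern in WT1 was not tested.

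**Figure D5:**
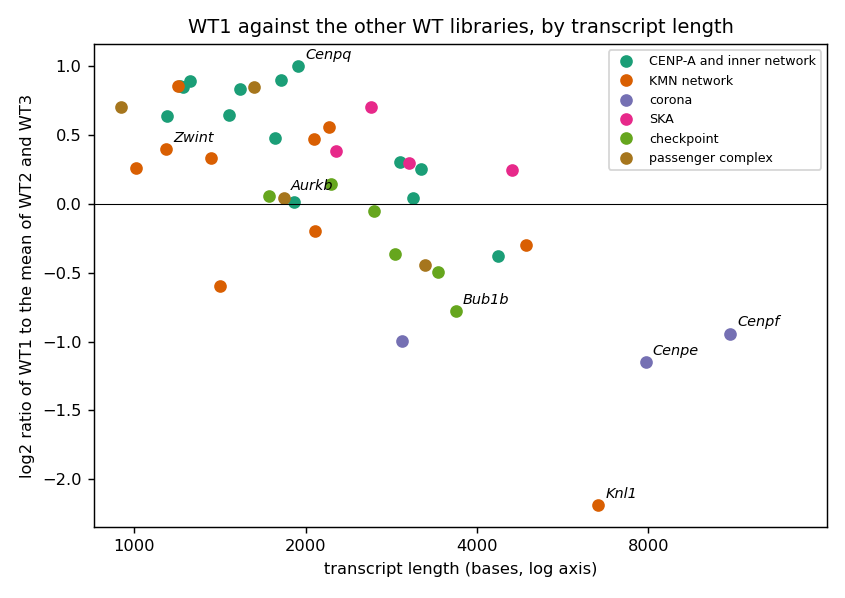
Log2 ratio of WT1 to the mean of WT2 and WT3 (y axis, from CPM with 0.1 added) against transcript length (x axis, log scale); each point is 1 of the 41 genes, coloured by functional group. Short genes lie mostly above 0 and the longest (Cenpf, Cenpe and Knl1) lie below it.

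Genes around the kinetochore were counted in the same way, all of them tested. Among 24 other centromere and kinetochore genes, Sgo1, which protects centromeric cohesion, rose by 0.47 without WT1 (SE 0.09, edgeR adjusted p = 0.0251), and its difference with WT1 was 0.28. Of 19 genes of the anaphase promoting complex and its activators, the target of the checkpoint, 2 rose, the activator Cdc20 by 0.36 and the ubiquitin-conjugating enzyme Ube2c by 0.49. Of 15 cohesin genes 2 rose, the acetyltransferase Esco2 by 0.64 and separase, Espl1, by 0.48. Of 18 DREAM and MuvB genes 2 rose, Lin9 by 0.63 and Rbl1 by 0.40. Of 17 proliferation markers 6 rose, led by Ccnb1 (0.56), Ccne2 (0.45), Mki67 (0.41) and Ccnb2 (0.40). With all 6 libraries the differences of these 4 were 0.39, -0.04, 0.78 and 0.14. Those of Cdc20, Ube2c, Esco2, Espl1, Lin9 and Rbl1 were then 0.14, 0.39, 0.76, 0.76, 0.82 and 0.48. None of these lists had a gene called lower, and with all 6 libraries edgeR called none of their genes in either direction, with 12 of the 93 genes higher and 3 lower at an unadjusted p under 0.05. On those libraries DESeq2 called 2 of the 93 higher and limma-voom 5, and neither called any lower. The 3 genes lower at an unadjusted p under 0.05 were Bod1, Rcc2 and Cenpb, all other centromere genes. Their differences were -0.99, -1.76 and -0.63 with 6 libraries and -0.81, -0.56 and -0.35 without WT1. Of the 24 other centromere genes, 7 had every KO library above every WT library and 5 every KO library below. Over all tested genes these shares were 10.2% and 9.11%. The medians without WT1 were 0.19 for the other centromere genes, 0.08 for the anaphase promoting complex, 0.10 for cohesin, 0.10 for DREAM and MuvB and 0.08 for the proliferation markers, against 0.32 for the 41 members. With all 6 libraries they were, in the same order, 0.25, 0.0014, 0.24, 0.16 and 0.0998, against 0.23 for the members, which then lay below other centromere genes and cohesin. Differences between these lists were not tested.

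Some listed markers of other cells were lower in KO and 1 was higher in every KO library. The 6 listed T cell genes in the table summed to 189 to 250 CPM in WT and 132 to 151 CPM in KO. Trbc2 was the highest of them, with 120 to 146 CPM in WT and 91.2 to 101 CPM in KO. Trbc1 had 42.5 to 60.5 CPM in WT and 26.9 to 34.8 CPM in KO. Cd3g had 22.9 to 40.99 CPM in WT and 12.9 to 13.9 CPM in KO. Cd3e, Cd3d and Trac had no more than 2.67, 0.574 and 0.349 CPM in any library. Of the 4 T cell genes tested, Cd3g and Trbc2 fell without WT1 (edgeR adjusted p = 0.0069 and 0.0257). Lung epithelial genes (6 of 6 in the table) summed to 26.5 to 71.2 CPM in WT and 9.78 to 23.0 CPM in KO, with Sftpc at 0 in WT1 and KO3. Of these, Epcam fell by 0.83 on the log2 scale without WT1 (SE 0.18, edgeR adjusted p = 0.0347). Macrophage genes (5 of 6 in the table) summed to 54.4 to 242 CPM in WT and 14.0 to 125 CPM in KO. B cell genes (2 of 4) summed to 14.1 to 19.97 CPM in WT and 12.2 to 17.2 CPM in KO. Pecam1, the 1 of 5 endothelial and fibroblast genes in the table, had 29.1 to 39.8 CPM in WT and 40.1 to 41.9 CPM in KO. Cpa3, the 1 of 6 eosinophil, mast cell and basophil genes in the table, had at most 1.47 CPM in any library. Markers of NK cells were not analysed here. The part of other cells in the member results was not tested.

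Whether the authors counted by strand is not stated, and 13 members overlap an exon of a gene on the opposite strand (Cenpk, Cenpo, Cenpp, Cenpq, Cenpt, Cenpu, Mis12, Mad1l1, Zwilch, Knstrn, Ska2, Ska3 and Cdca8). Their levels are uncertain to that extent. None of the 6 genes called without WT1 is among them. Leaving out 1 more library moved the count of 6 to between 1 (without KO2, or without KO3) and 12 (without KO1), with 3 called without WT2 and 2 without WT3. Cenpf was called in all 5 of these fits, Aurkb and Spc25 in 2, and Cenpa, Cenpn and Bub1b in 1. With WT2 or WT3 left out as well as WT1, the single WT library is assumed to vary like the KO libraries. Shares over all genes are not given here for these 5 fits, so their counts alone do not set the members apart from other genes.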

How the data were processed

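RNA-seq of 6 libraries, 3 WT and 3 KO by the sample titles, was analysed. The 41 members and all gene lists were chosen with earlier results of these data known. The authors deposited estimated counts per gene, as judged from the values: among those above 0, 60.2% lie within 0.001 of a whole number, and no gene totals under 10. Per the submitters' processing notes, mm10, Partek 10.0, STAR 2.7.8 and DESeq2 were used, with no role given. The sources used here state no gene counter, annotation or strand setting. Per the labels' protocols, a SMARTer low-input kit made the cDNA.

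Estimated counts were rounded to whole numbers, filtered with filterByExpr (minimum count 10, minimum total 15) and tested over the whole table in R 4.3.3 with edgeR 4.0.16 (TMM, robust quasi-likelihood fit, genotype only, two-sided, Benjamini-Hochberg adjustment, calls at an adjusted p under 0.05). All 41 members passed the filter in both fits. SE was derived as |log2 fold change| divided by the root of F. CPM were scaled by TMM over the 6 libraries. No molecular identifiers are stated, so reads may repeat molecules. No pair of libraries agreed within sampling noise (chi-square per gene at least 5.52), so none was taken as a repeat run of another. Each counted once, although this check cannot tell technical from biological replicates. Positions (1-based) and lengths, of the shortest principal transcript, are from GENCODE on GRCm38, which matched 17022 of 17438 symbols (97.6%). Scripts were tested on simulated data.

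Members called in either fit and the most abundant of each functional group were named with values in each library. So were those below 0 with 6 libraries and those whose sign differed between the fits. Called genes of other lists were named, up to 4 each, without values in each library. Alternatives were RLE size factors, totals alone, no filter, means of 10 CPM or more, limma-voom with quality weights (limma 3.58.1), DESeq2 1.42.0, a non-robust fit, the replicate block, a lowess length trend (span 0.3), an adjusted p under 0.1 and leaving out each library. The result of 1 gene of these other lists is not reported here.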

Additional observations from a re-analysis of the deposited data

How the results depend on the processing

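With all 6 libraries, 0 members were called under RLE size factors, library totals alone, no filter, a mean of at least 10 CPM, a fit that was not robust, the length trend and an adjusted p under 0.1. DESeq2 called 2 and limma-voom 3. Leaving out each library gave 0 to 6, the 6 without WT1. Without WT1 the count of 6 became 4 to 9 under the alternatives other than the block, and 1 to 12 with a KO library also left out. Over all genes edgeR without WT1 called 248, DESeq2 413 and the filter at a mean of 10 CPM 212. The all-gene counts of the block and of the fits with a further library left out are not given here. The median over the members lay between 0.14 and 0.32 with 6 libraries and between 0.24 and 0.36 without WT1. The count of members without overlap was 14 under RLE, 13 under library totals and 14 to 30 with each library left out, the 30 without WT1. Among the named members, alternatives ended a call 22 times and gave one 7 times without WT1, and gave one 11 times with 6 libraries. The cause of these changes was not tested.

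The replicate block called 0 members with 6 libraries and 13 without WT1, where KO1 is alone in its block. Same-numbered libraries deviated together at r = -0.046, -0.036 and -0.009, so the numbers were not taken as a pairing. In the block with 6 libraries 3 signs turned, to 0.037 for Cenph, 0.033 for Cenpk and 0.0201 for Cenpm, and without WT1 that of Zwint, to 0.0199.

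Signs near 0 turned elsewhere with 6 libraries. Library totals gave 0.017 for Cenph and 0.012 for Cenpk, and no filter gave 0.0052 for Cenph. Limma-voom gave 0.285 for Cenph, 0.32 for Cenpk, 0.30 for Cenpm, 0.18 for Cenpp, 0.30 for Cenpq, 0.19 for Cenpt, 0.053 for Pmf1 and 0.26 for Cdca8. The length trend gave 0.13 for Cenph, 0.12 for Cenpk, 0.10 for Cenpm, 0.063 for Cenpp, 0.089 for Pmf1 and 0.021 for Cdca8. Leaving out each library gave -0.17 to 0.35 for Cenph, -0.16 to 0.33 for Cenpk, -0.22 to 0.30 for Cenpm, -0.27 to 0.19 for Cenpp, -0.29 to 0.32 for Cenpq, -0.30 to 0.23 for Cenpt, -0.10 to 0.052 for Pmf1, -0.22 to 0.28 for Cdca8, -0.088 to 0.32 for Birc5 and -0.045 to 0.48 for Spc25. Without WT1, Zwint was 0.0019 with no filter, 0.0012 by limma-voom and 0.022 with the length trend. A further library left out gave -0.021 to 0.019 for Zwint, -0.039 to 0.40 for Cenpp and -0.0104 to 0.13 for Pmf1.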
